A study of Mus musculus with 2 samples.

Results

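The tripartite motif (TRIM) genes were described in primary mouse fibro-adipogenic progenitors (FAPs), mesenchymal cells of skeletal muscle with the capacity to form fat. The family was chosen with earlier results of these data known. Its members were taken by symbol alone, as every listed gene whose symbol is Trim followed by a number and at most 1 lower-case letter. This gave 60 of the 26082 genes listed, and all 60 were found in the GENCODE M21 gene models on mm10. FAPs with genotype WT were transfected with a plasmid overexpressing TGFBR3 in one group and with the vector in the other, and both groups received adipogenic induction. By the labels, the induction agents were insulin at 10 µg/ml, dexamethasone at 0.25 µM and IBMX at 0.5 mM, in DMEM that contained 20% FBS. The study's methods describe sorting of the cells from muscle of C57BL/6 mice. Each group had 1 library, so the differences below have no replicates behind them and are given without p-values. The number of animals or cultures behind a library, the promoter of the plasmid and the time of harvest are not given in the sources used here.

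TRIM proteins share an N-terminal arrangement of a RING finger, 1 or more B-boxes and a coiled coil. The RING finger recruits a ubiquitin-loaded E2 enzyme, which makes most members E3 ligases, and the C-terminal domain selects the target. The largest class ends in a SPRY domain and holds many antiviral factors, several of which are known to be induced by interferon. Other classes end in a PHD finger and bromodomain that read chromatin, in NHL repeats that bind RNA or protein, or in a COS box that binds microtubules. In muscle the family is best known for Trim63 (MuRF1), a ligase of sarcomeric proteins in atrophy, and for Trim32, which is mutated in a limb-girdle muscular dystrophy.

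The library labelled TGFBR3 overexpression held 62321027 gene counts and the library labelled vector control held 83779203. Tgfbr3 was listed at 36.87 FPKM and 16372 counts in the former and at 35.13 FPKM and 21245 counts in the latter. Its log2 ratio of (FPKM + 1), overexpression over control, was 0.07 (95% counting interval 0.04 to 0.10), so the gene named in the label was at nearly the same level in both libraries. The libraries are therefore called by their labels. The same log2 ratio, with a pseudocount of 1 FPKM, is the measure used throughout. Its intervals are exact Clopper-Pearson intervals for the split of a gene's reads between the libraries and cover counting error only. Over the 10626 genes that reached 1 FPKM in each library the median ratio was 0.13, and a centred ratio below is relative to this median gene. A gene is called expressed where its FPKM averaged 1 or more over both libraries. The ratio also ran with GC content, with a median of 0.42 in the GC-poorest of 20 bins and −0.26 in the GC-richest. The 5 FAP markers Pdgfra, Ly6a, Cd34, Thy1 and Dcn were all present, with summed FPKM of 1196.14 and 898.53. Ly6a alone held 1012.73 and 706.37 of these sums, and the median ratio of the 5 was −0.04. None of the 8 macrophage markers was expressed. Their counts summed to 244 and 245, of which Csf1r held 182 and 210. Ptprc, Adgre1 and Tyrobp were listed at 0 FPKM in both libraries. None of the 6 skeletal muscle markers listed was expressed either, with summed counts of 369 and 350. Of 5 adipocyte markers, Cfd (15.33 and 39.04 FPKM) and Adipoq (5.69 and 13.01 FPKM) were at least 2-fold lower in the library labelled overexpression. Plin1 (1.15 and 1.98 FPKM, ratio −0.47) was also lower there, and Fabp4 (12.60 and 13.94, −0.14) slightly so. Pparg (2.19 and 1.61, 0.29) was the only adipocyte marker of the list that was higher. In bulk RNA, fewer cells of a type and less RNA per cell cannot be told apart.

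FAPs held a broad set of TRIM transcripts at moderate levels. Of the 60 genes, 35 had an FPKM of 1 or more in the overexpression-labelled library and 31 did in the control. At least 10 FPKM was reached by 16 and 9 of them. Summed over the family, FPKM was 449.2 and 295.0, and its share of the counts was 2172.9 and 1435.7 CPM. The highest levels in the control were those of Trim28 (43.86 FPKM), the corepressor recruited by KRAB zinc finger proteins, and Trim35 (41.93 FPKM), a SPRY-domain ligase. Trim47 (21.94), Trim3 (18.0) and Trim8 (16.74) followed. These 5 genes held 48.3% of the family's summed FPKM in the control. In the library labelled overexpression, Trim35 (62.35 FPKM) and Trim28 (41.16 FPKM) were again the highest pair, in exchanged order. They were followed there by Trim30a (36.83 FPKM), which was the 11th gene of the family in the control, and by Trim25 (29.8 FPKM), which was the ninth. Over the 35 expressed members, the log2 levels of the libraries correlated with a Pearson r of 0.899, a description across genes that are not independent replicates.

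**Figure D1:**
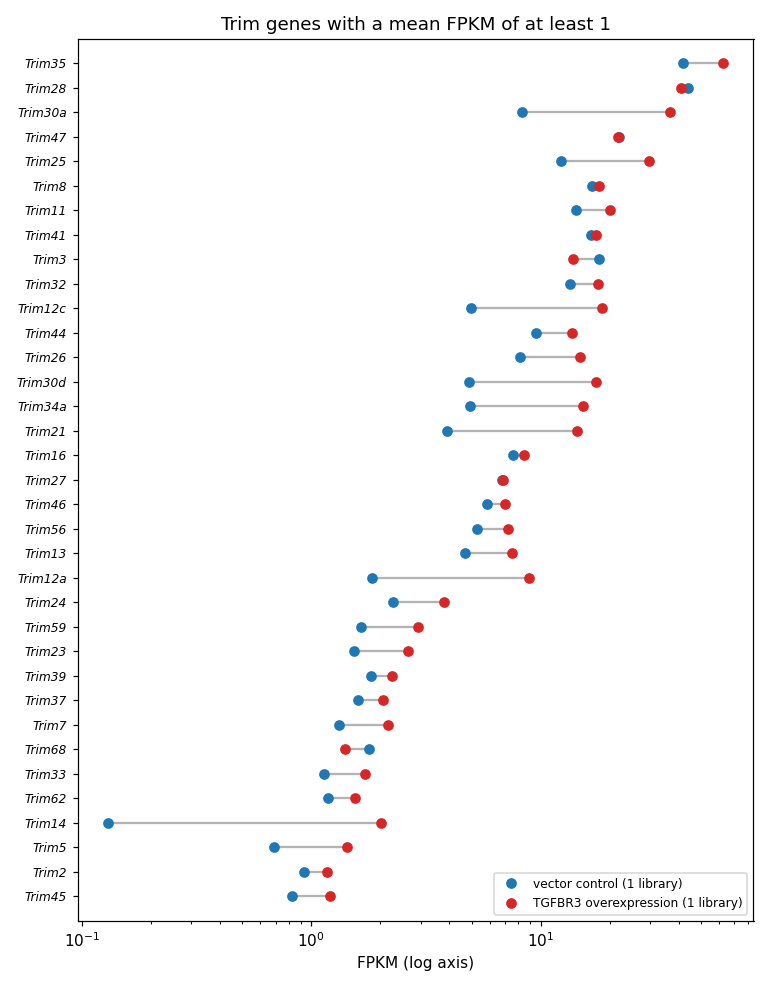
FPKM of the 35 expressed Trim genes on a log axis, with 1 point for each of the 2 libraries and a grey line joining them. Most pairs of points lie close together, whereas Trim30a, Trim12c, Trim30d, Trim34a, Trim21, Trim12a and Trim14 are set far apart, with the overexpression-labelled library on the right.

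The largest differences between the libraries lay in a small set of members. Of the 60 genes, 8 were higher by 2-fold or more in the overexpression-labelled library (13.3%, against 1.41% of all genes listed), namely Trim30a, Trim12a, Trim12c, Trim21, Trim30d, Trim34a, Trim14 and Trim25. None was at least 2-fold lower, against 0.475% of all genes. These 8 genes had 41.2 of the family's summed FPKM in the control and 143.2 in the library labelled overexpression, which was 14.0% and 31.9% of it. The remaining members summed to 253.8 and 306.0 FPKM. For each of the 8 the whole counting interval lay past 2-fold. With the GC trend removed, their ratios were between 1.08 and 1.60.

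Among the 35 expressed members, these 8 made up 22.9%, where the background over all expressed genes was 3.14%. The lower side had no member against a background of 1.03%. Trim14, Trim5, Trim45 and Trim2 were under 1 FPKM in the control and passed this level only through the library where they were higher, so counts and medians over the 35 are descriptions of the genes that passed. Relative to the median gene, all 8 were still at least 2-fold higher, with a smallest centred ratio of 1.09 and a background of 2.39%. A 1.5-fold threshold added only Trim26, for 9 of 35 (25.7%, background 13.3%), and again no member was lower (background 4.91%). The median ratio was 0.44 for the 35 members and 0.14 for all 11213 expressed genes. A ratio above 0 was seen for 31 of 35 members (88.6%, background 63.1%) and a centred ratio above 0 for 28 (80%, background 51.3%). The 27 members short of 2-fold had a median of 0.28, or 0.15 when centred, which was nearer to all expressed genes. The plain ratio without a pseudocount, taken where both libraries held over 3 counts, was at least 2-fold higher for 12 of 46 members (26.1%, background 13.4%) and lower for 1 (2.17%, background 4.22%). It added Trim5, Trim34b, Trim6 and Trim72 on the higher side and Trim29 on the lower.

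**Figure D2:**
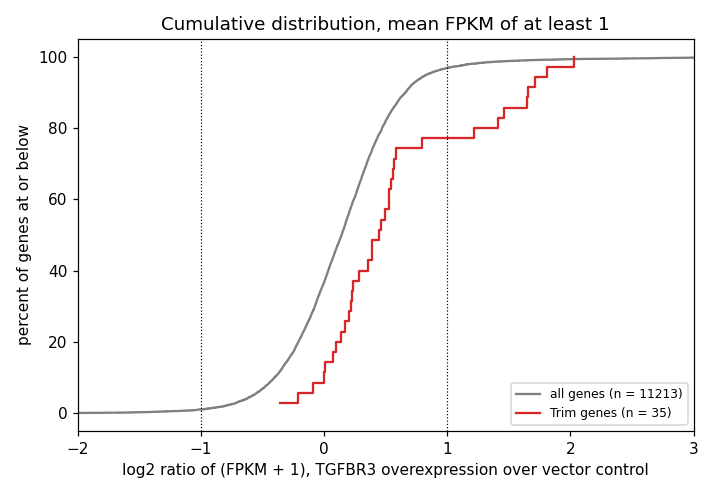
Cumulative percent of genes at or below each log2 ratio of (FPKM + 1), overexpression over control, for the 35 expressed Trim genes (red) and all 11213 expressed genes (grey), with dotted lines at 2-fold. The Trim curve runs to the right of the grey one and has a step of 8 genes above a ratio of 1.

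Trim30a (ENSMUSG00000030921, chr7:104409025-104465193, minus strand), which restrains Toll-like receptor signalling in mouse cells, was listed at 36.83 FPKM and 10271 counts in the library labelled overexpression and at 8.29 FPKM and 3150 counts in the control. Its ratio of 2.03 (95% counting interval 1.97 to 2.08) was the largest of the family by this measure and the only one past 4-fold. It was under 4-fold with TMM factors (1.83), and the plain ratios of Trim12a (2.29) and Trim14 were above that of Trim30a (2.15). Its neighbour Trim30d (chr7:104470014-104507849, minus strand) was listed at 17.46 and 4.88 FPKM, with 4452 and 1696 counts and a ratio of 1.65 (1.58 to 1.72). Both were thus higher, from different starting levels, and the counting interval of Trim30a lay above that of Trim30d.

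Trim12a and Trim12c are mouse relatives of primate TRIM5, the factor that recognises retroviral capsids. Trim12a (chr7:104299894-104315466, minus strand) was at 8.93 and 1.83 FPKM, with 3504 and 978 counts and a ratio of 1.81 (1.74 to 1.88). Trim12c (chr7:104338754-104353362, minus strand) was at 18.5 and 4.97 FPKM, with 4695 and 1716 counts and a ratio of 1.71 (1.64 to 1.78). Trim34a (chr7:104244457-104262234, plus strand), a SPRY member of the same locus, was at 15.27 and 4.91 FPKM, with 2686 and 1176 counts and a ratio of 1.46 (1.38 to 1.55). In the control, the levels of Trim12c, Trim34a and Trim30d differed by less than 0.1 FPKM, and Trim34a was the lowest of these in the other library.

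Trim21 and Trim25 are the members of the set that stand apart from this locus and share little sequence with other genes. Trim21 (ENSMUSG00000030966, chr7:102557921-102565486, minus strand), a cytosolic receptor that binds antibody-coated viruses by the Fc part, was at 14.42 and 3.9 FPKM. Its 3636 and 1342 counts gave a ratio of 1.65 (1.58 to 1.73). Trim25 (ENSMUSG00000000275, chr11:88999376-89020293, plus strand), the ligase known for ubiquitinating the RNA sensor RIG-I, was already the ninth gene of the family in the control at 12.29 FPKM. It was at 29.8 FPKM in the other library, with 11633 and 6536 counts and a ratio of 1.21 (1.17 to 1.25). It was the nearest of the 8 to the threshold, and stood at 1.003 with the trend over exon length removed and at 0.98 with median-of-ratios scaling.

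Trim14 (ENSMUSG00000039853, chr4:46493781-46536141, minus strand), which lacks a RING finger and acts as an adaptor of the mitochondrial antiviral protein Mavs, had the widest plain ratio. It was near the detection limit in the control, at 0.13 FPKM and 52 counts, and at 2.01 FPKM and 594 counts in the library labelled overexpression. The plain ratio was 3.96, which is 15.6-fold, and the ratio with the pseudocount was 1.41 (1.34 to 1.48). Of its exon length, 38.0% overlaps genes on the opposite strand, mainly Nans. Nans itself was far more abundant and slightly lower in the library labelled overexpression, at 18.64 and 23.21 FPKM (ratio −0.30). The library preparation kept the strand by the labels' protocol and the study's methods. Whether the counting used it is not given in the sources used here, and the part of the overlap in the Trim14 value was not tested.

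**Figure D3:**
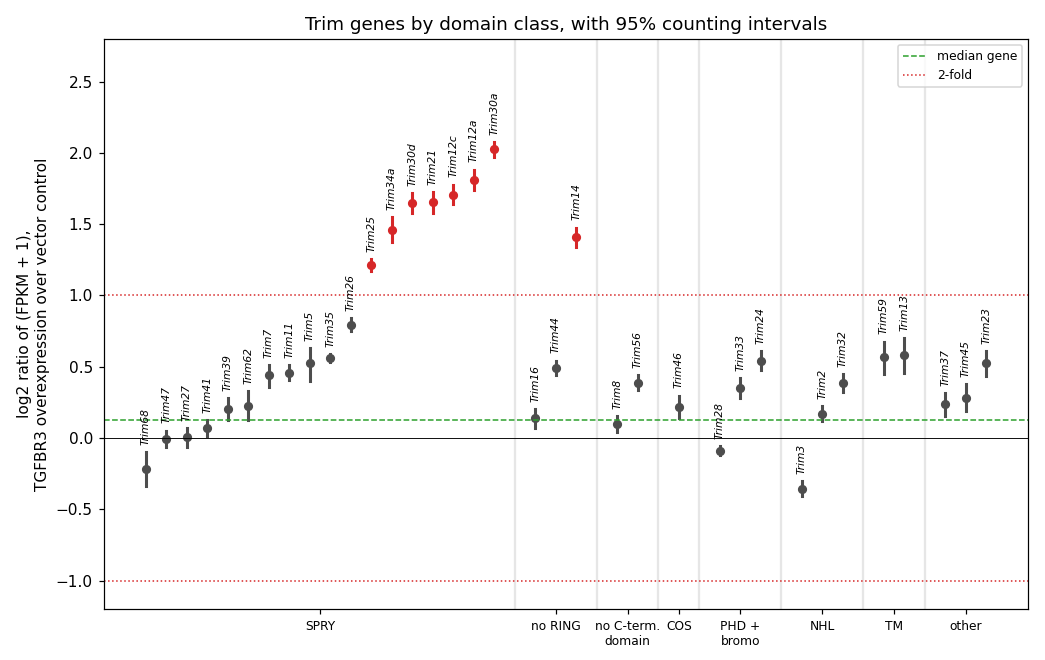
Log2 ratio of (FPKM + 1), overexpression over control, of the 35 expressed Trim genes, grouped by C-terminal class, with vertical bars for the 95% counting intervals. Red points are at least 2-fold higher and grey points are not. The green dashed line is the median gene at 0.13 and the red dotted lines mark 2-fold. All red points but Trim14 fall in the SPRY class.

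Of the 8 genes, 5 lie in a single block of Trim genes on chromosome 7, with other members between them. This block (chr7:104218793-104507849, 289.1 kb) holds 10 members in the order Trim6, Trim34a, Trim5, Trim12a, Trim34b, Trim12c, Trim30b, Trim30c, Trim30a and Trim30d. No other gene inside it was expressed, out of 6 listed. Its summed FPKM was 99.9 in the library labelled overexpression and 25.9 in the control. The ratios within the block nonetheless spread widely. Trim5, between Trim34a and Trim12a, was at 1.43 and 0.69 FPKM, with 358 and 237 counts and a ratio of 0.52. Trim34b was at 0.98 and 0.3 FPKM, with 124 and 52 counts and a ratio of 0.61. Trim6, at the edge of the block, was at 0.21 and 0.05 FPKM with 70 and 21 counts. Their plain ratios were 1.04, 1.70 and 2.18, so these low members were also higher, at levels that the pseudocount compresses. Trim30c was listed at 35 counts in the library labelled overexpression and at 0 in the control. Trim30b was listed at 7 counts and 0.

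**Figure D4:**
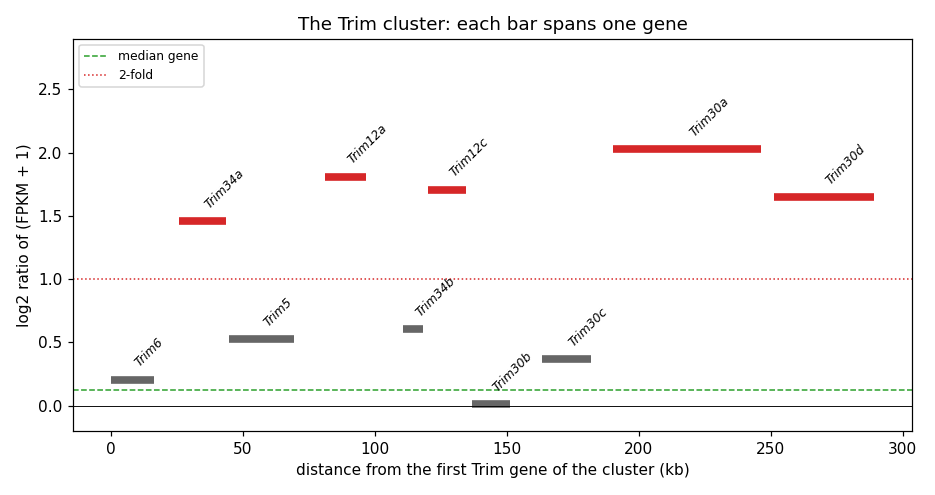
Log2 ratio of (FPKM + 1), overexpression over control, of the 10 Trim genes of the chromosome 7 block against the distance in kb from the start of the first of them. Each bar spans a gene, red where it is at least 2-fold higher. The 5 red genes are interspersed with grey ones.

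The genes of this block are close paralogues, and reads could be split among them by the authors' counting. Of the 31-base words in the Trim34a transcripts, 68.5% occur in transcripts of another gene, and 48.7% in Trim34b alone. For Trim12c the share was 48.1%, for Trim5 53.3%, for Trim12a 16.0%, and for both Trim30a and Trim30d 11.9%. Counts summed over paralogues do not depend on how reads were split within the sum if each shared read was counted once. Whether shared reads were counted once, dropped or counted repeatedly is not given in the sources used here. Words shared with genes outside the sum were 17.6%, 9.5% and 2.2% for the 3 sums below. Trim34a and Trim34b together held 2810 and 1228 counts, with a plain log2 ratio of 1.64 (1.54 to 1.74). Trim5, Trim12a and Trim12c together held 8557 and 2931 counts, with a plain ratio of 1.99 (1.93 to 2.05). The 4 Trim30 genes held 14765 and 4846 counts, with a plain ratio of 2.05 (2.01 to 2.1). As listed, all 3 sums were past 2-fold, whereas the value of a single gene such as Trim34a or Trim12c remains uncertain. Trim21, with 1.9% of shared words, and Trim25, with 0.6%, share little sequence with other genes. The antisense gene Gm47248, which overlaps 23.5% of the Trim34a exon length, was listed at 0 and 1 counts.

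A further 129.4 kb interval of chromosome 7 (chr7:102557921-102687327) holds Trim21 and Trim68, a SPRY ligase described as an androgen receptor coactivator. Trim68 was at 1.40 and 1.79 FPKM, with 332 and 578 counts and a ratio of −0.22 (−0.34 to −0.10). These neighbours hence lay on opposite sides of 0.

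Promoters were read because the members that differed are neighbours and relatives of each other. RefSeq promoters on GRCm38.p6 (mm10), from 250 bases before to 50 bases after a start site, were matched by symbol for 47 of the 60 genes, among them 7 of the 8 that were 2-fold higher. Trim14 had no entry. An element like the interferon-stimulated response element, spelled GAAANNGAAA and searched on both strands, was present in 3.44% of all 32851 promoters. By gene it was found for 3.99% of 27025 genes and for 9 of the 47 Trim genes. It was in 6 of the 7 genes at least 2-fold higher with an entry and in 3 of the 40 others, Trim2, Trim5 and Trim26. The 40 include members that were not expressed, for which the pseudocount makes a 2-fold ratio hard to reach. Matches in close paralogues are also not independent of each other, so these counts are descriptions. Trim25 had no match in its window. A match to these letters is a description and not a binding site. The windows below hold 30 bases around the match, 5′ to 3′ on the strand of the gene with the match in capitals, and are shown because they carry the likeness among the members that differed.
Trim21 (chr7:102565447-102565476, minus strand): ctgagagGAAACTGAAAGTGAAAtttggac
Trim34a (chr7:104244457-104244486, plus strand): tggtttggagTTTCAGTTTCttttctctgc
Trim5 (chr7:104288136-104288165, minus strand): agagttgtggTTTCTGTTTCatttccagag
Trim12a (chr7:104315466-104315495, minus strand): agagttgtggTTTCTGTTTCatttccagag
Trim12c (chr7:104353359-104353388, minus strand): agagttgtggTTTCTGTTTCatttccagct
Trim30a (chr7:104465210-104465239, minus strand): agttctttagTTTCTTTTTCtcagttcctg
Trim30d (chr7:104507871-104507900, minus strand): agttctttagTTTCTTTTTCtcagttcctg
Trim26 (chr17:36836979-36837008, plus strand): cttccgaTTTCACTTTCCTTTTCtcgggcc
Trim2 (chr3:84212791-84212820, minus strand): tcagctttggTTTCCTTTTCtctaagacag
In Trim21 and Trim26 the capitals span 2 overlapping matches. The first base in capitals lay 14 bases after the RefSeq start site in Trim21 and 11 after it in Trim34a. It lay 29 bases before the start in Trim12c, 36 in Trim30a, 41 in Trim30d and 160 in Trim26. The Trim2 match was 29 bases after a start site inside the gene, and a further start inside Trim30a also carried a match.

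The windows fall into families that follow the paralogues. Over 50 bases centred on the match, Trim30a and Trim30d were identical at 50 positions, as were Trim5 and Trim12a, and Trim12c differed from either of the latter at 2. Trim34a matched Trim12c at 24 positions and Trim21 matched it at 14, without gaps. The same sequence was therefore present at the starts of Trim12a, with a ratio of 1.81, and of Trim5, with a ratio of 0.52. Their plain ratios were 2.29 and 1.04, so both were past 2-fold by that measure. Relative to the RefSeq starts the match began 11 bases after that of Trim12a and 49 bases before that of Trim5. The GENCODE start of Trim12a lies further downstream, so that the match falls before it. The 100 bases before the start sites of Trim30a and Trim30d show that the likeness extends past the window, with an offset of a few bases in the annotated start.
Trim30a (chr7:104465194-104465293, minus strand): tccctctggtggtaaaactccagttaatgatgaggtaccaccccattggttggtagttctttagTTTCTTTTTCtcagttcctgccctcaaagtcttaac
Trim30d (chr7:104507850-104507949, minus strand): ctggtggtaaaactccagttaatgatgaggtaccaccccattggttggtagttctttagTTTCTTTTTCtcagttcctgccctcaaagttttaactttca
A second motif, the palindromic GAS-like TTCNNNGAA, was found for 5 of the 47 Trim genes and for 9.55% of all genes. None of those 5 was among the 8 that were 2-fold higher.

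The other SPRY members lay closer to the median gene. In all, 18 of the 33 genes of this class were expressed, of which 7 were 2-fold higher and 14 were above the median gene, and the class median was 0.54. The 14 include the 7. Over all expressed genes, 3.14% were 2-fold higher and 51.3% were above the median gene. Trim26, a regulator of the interferon transcription factor Irf3, was next in order at 14.89 and 8.16 FPKM, with 6945 and 5179 counts and a ratio of 0.79 (0.75 to 0.84). Trim35, which binds pyruvate kinase M2, was at 62.35 and 41.93 FPKM, with 19534 and 17893 counts and a ratio of 0.56 (0.53 to 0.59). Trim11 (19.99 and 14.28 FPKM) had 0.46, and Trim7 (2.15 and 1.32 FPKM), a partner of glycogenin, had 0.44. Of the Trim7 exon length, 8.3% overlaps genes on the opposite strand, among them Gm12184 (20.57 and 16.97 FPKM). The part of this overlap in the Trim7 value was not tested.

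At the lower end of the class, Trim41 (17.47 and 16.57 FPKM) had a ratio of 0.07, and Trim27 (6.84 and 6.82 FPKM) and Trim47 (21.87 and 21.94 FPKM) stood at 0.00 and −0.00. The intervals of Trim27 and Trim47 included 0, as those of no other expressed member did. Trim62 (1.55 and 1.18 FPKM) and Trim39 (2.25 and 1.82 FPKM) were between, with 0.23 and 0.20. Summed over the whole SPRY class, FPKM was 296.21 and 159.0, so this class carried most of the difference in the family's total.

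Of the expressed members that act on chromatin, Trim28 and Trim33 lay nearer to the median gene than Trim24, which was above it. Trim28 was at 41.16 and 43.86 FPKM, with 11615 and 16854 counts and a ratio of −0.09 (−0.12 to −0.06), or −0.22 when centred. Trim24, a coregulator of nuclear receptors, was at 3.78 and 2.28 FPKM, with a ratio of 0.54. Trim33, a ligase of the SMAD4 pathway of TGF-beta signalling, was at 1.72 and 1.13 FPKM, with 0.35 (0.28 to 0.42). None of the 3 reached 2-fold, and the fourth gene of the class, Trim66, was at 0.15 and 0.09 FPKM.

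The NHL-repeat members held the lowest ratio of the expressed members. Trim3, the fourth gene of the family in the control, was at 13.84 and 18.0 FPKM, with 4296 and 7603 counts and a ratio of −0.36 (−0.41 to −0.30), or −0.48 when centred. Trim32, the muscular dystrophy gene, was in contrast higher, at 17.81 and 13.39 FPKM with a ratio of 0.39 (0.33 to 0.45). Trim2, a ligase of neurofilament light chain, was at 1.17 and 0.93 FPKM, with 0.17. Trim71, a regulator of stem cells and a classical let-7 target, was at 0.02 FPKM in both libraries, with 12 and 14 counts.

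The muscle-restricted members were almost silent in these cells. Trim63 was listed at 13 and 11 counts, and Trim54, the related MuRF3, at 0 in both libraries. Trim72, which repairs the muscle membrane, was at 0.19 and 0.05 FPKM, and its 30 and 10 counts gave a plain ratio of 2.03 with a wide interval (0.96 to 3.23). Of its exon length, 27.6% overlaps Gm15533 on the opposite strand, which was listed at 17 and 0 counts. The part of this overlap in the Trim72 value was not tested. Of the 6 genes with a COS box, only Trim46, known from neuronal microtubules, was expressed, at 6.98 and 5.86 FPKM with a ratio of 0.22. Of the Trim46 exon length, 6.3% overlaps Krtcap2 on the opposite strand, which was at 25.12 and 37.32 FPKM. The part of this overlap in the Trim46 value was not tested. In the muscle atrophy list beside Trim63, 6 of 8 genes were expressed and none was 2-fold different. Fbxo30, a ubiquitin ligase of atrophying muscle, had the largest ratio there (5.27 and 2.68 FPKM, 0.77), and Fbxo32, or atrogin-1, was at 1.05 and 1.16 FPKM.

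Both members with a transmembrane segment were above the median gene. Trim13, a ligase of the endoplasmic reticulum, was at 7.47 and 4.67 FPKM, with a ratio of 0.58 (0.45 to 0.70), and Trim59 was at 2.91 and 1.64 FPKM, with 0.57 (0.45 to 0.68). With the GC trend removed these values were 0.20 and 0.14. Of the Trim13 words, 28.7% occur in Gm9359. Trim56, which takes part in cytosolic DNA sensing, was at 7.22 and 5.28 FPKM, with 0.39, and Trim8, a ligase of Socs1, was at 18.0 and 16.74 FPKM, with 0.10. Trim23, which ends in an ARF domain, had 0.52, Trim45 had 0.28, and Trim37, the gene of mulibrey nanism, had 0.24.

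The genes without a RING finger differed widely among themselves. Beside Trim14, Trim44 was at 13.78 and 9.51 FPKM, with a ratio of 0.49 (0.44 to 0.54), and Trim16, which acts on damaged lysosomes, was at 8.45 and 7.58 FPKM, with 0.14. Trim29, an epithelial member, was at 0.42 and 0.9 FPKM. Its 101 and 289 counts gave a plain ratio of −1.07 (−1.41 to −0.74), the only plain ratio of the family at least 2-fold lower where both libraries held over 3 counts.

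The remaining members were at or near the detection limit. A mean FPKM under 1 was found for 25 of the 60 members, and 3 (Trim54, Trim60 and Trim9) were listed at 0 counts in both libraries. A further 7 were listed at 0 in the control only, with 3 to 35 counts in the library labelled overexpression, and 4 were listed at 0 in the latter only, with 4 to 12 counts in the control. No fold is given for these. Of 1731 genes with 10 to 20 counts in the library labelled overexpression, 19.1% were listed at 0 and 3.64% at 1 to 3 counts in the control. A listed 0 in these files is thus more frequent than the low counts next to it.

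Lists of interferon response genes and of genes known to work with TRIM proteins gave the setting. Over all expressed genes, 3.14% were at least 2-fold higher and 1.03% at least 2-fold lower. This is the background for these lists and those below. All 20 interferon response genes of a list, chosen with earlier results of these data known, were expressed. Of these, 19 were higher by 2-fold or more in the overexpression-labelled library, with a median ratio of 2.70. Ifit2, for instance, was at 62.26 and 4.53 FPKM (3.52), and Ifit3, its partner in binding viral RNA, at 673.39 and 60.91 FPKM (3.45). Of 11 genes of RIG-I signalling and its Trim25 partners, 5 were at least 2-fold higher and none was 2-fold lower. They were Irf7 (278.68 and 20.98 FPKM, ratio 3.67), Ifih1 (10.85 and 2.49, 1.76), Dhx58 (34.52 and 11.31, 1.53), Ddx58, which encodes RIG-I itself (35.88 and 12.12, 1.49), and Rnf135 (11.91 and 4.97, 1.11), which was at 0.99 when centred. Irf3, a transcription factor of this pathway, was lower, at 5.71 and 8.76 FPKM with a ratio of −0.54 (−0.62 to −0.46).

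The enzymes that supply ubiquitin to TRIM ligases were mostly close to the median gene. Of 22 E1 and E2 genes, 21 were expressed, 1 was at least 2-fold higher, none was 2-fold lower, and the median was 0.28. The 1 was Ube2l6, an E2 that conjugates Isg15, at 110.91 and 51.54 FPKM with a ratio of 1.09, or 0.96 when centred. Ube2e1 (0.81) and Uba7, the E1 of Isg15 (0.70), came next.

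Of the TRIM proteins that carry other symbols, 6 were listed, and the expressed pair was Pml and Mid1. Pml, the organiser of nuclear bodies, was at 52.66 and 22.83 FPKM, with 19907 and 11757 counts and a ratio of 1.17 (1.14 to 1.20). Mid1, a microtubule-bound ligase, was at 4.06 and 4.52 FPKM, with −0.13. None of 12 expressed Trim28 corepressor partners was 2-fold different, and their median was 0.30. Atf7ip, which stabilises the histone methyltransferase Setdb1, had the largest ratio (6.33 and 3.01 FPKM, 0.87), and Setdb1 itself had 0.30.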

How the data were processed

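The authors deposited, for each of the 2 libraries, a raw count and an FPKM value per gene, the latter rounded to 2 decimals. Submitters' processing notes name cutadapt 1.9, HISAT2 2.2.1, StringTie 2.1.6, DESeq2, edgeR and mm10, whereas the paper's methods name STAR and FeatureCounts, so the counter is uncertain, as is its strand setting. For 98.7% of 6769 and 98.8% of 6198 genes with an FPKM of at least 5, dividing the deposited count by GENCODE M21 exon length and by 1 total gave the deposited FPKM to within 1%. With 1 library per group no count model was run. Ratios of (FPKM + 1) with exact 95% intervals from the counts (scipy 1.17.1) were computed, and were also run on simulated counts. Those counts held Poisson error only, without variation between cultures, a GC trend or excess zeros. That run therefore checks the arithmetic and not how well the intervals suit these libraries. Without known molecular identifiers, intervals and the floor of 3 counts cover counting error only.

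Members and lists were chosen with earlier results of these data known. Members were named if they had a mean FPKM of at least 1, were past 2-fold in either ratio, or lay beside such paralogues, or to say that they were near 0 counts. From each partner list up to 5 genes of largest ratio were named. Nans, Gm47248, Gm9359, Gm15533, Gm12184, Krtcap2, Setdb1, Irf3, Fbxo32 and Trim members at 0 counts in 1 library were named after their values were seen. Alternatives were other pseudocounts, TMM factors (edgeR 4.0.16), median-of-ratios factors, CPM, removal of trends over GC and exon length in 20 bins, filters on low values, other thresholds and exclusion of genes with over 5% shared 31-base words. Summing over paralogues was added after seeing the data. Promoters came from RefSeq tables, and exon models from GENCODE.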

Additional observations from a re-analysis of the deposited data

How the results depend on the processing

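The count of 8 members at least 2-fold higher came out at 8 when centred, with TMM factors, as CPM, with the GC or the exon length trend removed, and when the whole interval had to pass, and the 8 genes were the same under each of these scalings. It was 7 with median-of-ratios factors, where Trim25 stood at 0.98, 12 with a pseudocount of 0.1 and 19 with a pseudocount of 0.01, 1 (Trim30a) at 4-fold, and 2 (Trim21 and Trim25) without members sharing over 5% of 31-base words. The count of members at least 2-fold lower was 0, and was 4 with a pseudocount of 0.01 (Trim29, Trim43a, Trim43c and Trim80), of which only Trim29 was above 0 counts in both libraries. The median ratio of 0.44 was 0.53 and 0.56 with pseudocounts of 0.1 and 0.01, 0.32 when centred, 0.25 with TMM, 0.22 with median-of-ratios factors and 0.51 as CPM. It was 0.26 with the GC trend removed, 0.27 with the exon length trend removed, 0.20 over members with over 3 counts in either library, and 0.26 without members of shared sequence. Of 245 single-gene values over 35 genes under these alternatives, none of a gene past 2-fold changed sign, and 192 lay outside the main counting interval. A value on the other side of 0 came up 20 times, for 10 genes (Trim2, Trim8, Trim16, Trim27, Trim28, Trim33, Trim37, Trim39, Trim41 and Trim47), mostly when centred or with TMM or a trend removed. Examples are Trim28 (0.01 with the GC trend removed), Trim33 (−0.01 likewise), Trim37 (−0.05 likewise), Trim2 (−0.12 likewise) and Trim8 (−0.03 when centred), so no direction can be read for these 10. The cause was not tested. No paired analysis was possible because each group had 1 library, and for the same reason no replicate could be left out.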

Other observations

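Low counts in both files were unevenly filled. Exactly 4 counts were listed for 913 genes in the overexpression-labelled library, against 458 with 3 and 323 with 5, and for 930 in the control, against 416 and 271. Of 1663 genes with 10 to 20 counts in the control, 14.7% were listed at 0 in the other library and 3.91% at 1 to 3. Of 1370 genes with 21 to 40 counts in the overexpression-labelled library, the range that holds Trim30c with 35 and Trim36 with 26, 5.77% were listed at 0 in the control.

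Beside the family, the FAP markers were split in direction, with Ly6a at 1012.73 and 706.37 FPKM (ratio 0.52) and Cd34 at 20.62 and 25.68 FPKM (−0.30). The 4 endothelial markers were low and moved apart, with 333 and 474 counts for Tek, 165 and 328 for Cdh5, 262 and 65 for Kdr and 24 and 8 for Pecam1.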
